A study of Mus musculus with 72 samples.

Results

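The livers described here came from 12-week-old F2 sons, the male offspring of males that had themselves been conceived either by IVF or naturally. They were taken as the 10 columns of the F2 male liver count table, 5 from sons of IVF-conceived males (IVF) and 5 from sons of naturally conceived males (naturals), out of 72 RNA libraries in the series, and all 35976 gene symbols of that table were examined. F1 males of the IVF group had been made from the eggs of superovulated CF-1 females and the sperm of SJL/B6 males, cultured to the blastocyst stage and transferred to pseudopregnant females, whereas F1 males of the natural group came from matings of the same kinds of mice with no embryo transfer. The SJL/B6 males were bred from SJL females and C57BL/6 males of a CAG-EGFP transgenic line, and the labels do not say which F2 sons carried the transgene. The F1 males of both groups were then paired, at 12 weeks of age, with CF-1 females that carried no transgene. Pups of both F2 groups were therefore conceived by mating and delivered naturally, and no F2 animal was itself an IVF embryo. The comparison asks whether conception of the sire by IVF was followed by a difference in liver gene expression in his sons. The sources used here do not tie the 10 livers to sires or litters. A few breeding pairs in each group gave successive litters, so some livers may share a sire or a litter, and p-values measure the spread between these libraries.

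The adult liver makes cholesterol, triglyceride, bile acids, glucose and most plasma proteins, and hepatocytes make up most of its mass. Cholesterol synthesis is controlled by the transcription factor SREBP2, the product of Srebf2, which is released from the endoplasmic reticulum (ER) when sterols are low and activates nearly every gene of the pathway. Because hepatocytes secrete so much protein, the ER holds abundant chaperones of the HSP90, HSP70, calreticulin and disulfide isomerase families, whose genes are induced by the unfolded protein response. DNAJC proteins are co-chaperones that stimulate HSP70 proteins. In male mice many liver P450 and major urinary protein genes are set by the pulses of growth hormone, which gives the liver a sex-specific programme.

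The libraries differed between the groups in more than the sire. Totals of assigned reads ran from 10391074 to 44069283 in naturals and from 543745 in IVF 3 and 2137355 in IVF 2 to 12624673 in IVF 1, and the log2 totals differed by an exact permutation test (24.1 ± 0.787 in naturals and 22 ± 1.93 in IVF, SD, n = 5 each, two-sided p = 0.0238, 0.0298 adjusted over 5 library measures). The difference in log2 totals, −2.10 over all libraries, was −1.36 without IVF 3 and did not pass the same test (adjusted p = 0.0595). Nor did it pass without natural 1, 2, 3 or 4 or without IVF 2. Mitochondria-encoded genes took 2.74% to 3.72% of the reads in naturals, 7.2% to 8.03% in IVF 1, 4 and 5, 29.2% in IVF 2 and 36.5% in IVF 3. No IVF library overlapped the naturals in that share, and its exact two-sided p of 0.00794 is the smallest that 5 against 5 libraries allow. In IVF 3 the genes that mark sex were mixed and rested on few reads. Xist, the RNA that coats the inactive X of females, stood at 19.3 CPM (8 reads) against 0.361 to 0.691 CPM in naturals and 1.18 to 3.73 CPM in the other IVF livers. The Y-linked Eif2s3y was at 9.64 CPM in IVF 3 (4 reads), below the 25.6 to 30.2 CPM of naturals and the 40.5 to 82.1 CPM of the other IVF livers. Uty was also below the naturals, at 4.82 CPM against 8.30 to 10.2 CPM, whereas the Y-linked Ddx3y (50.6 CPM) and Kdm5d (9.64 CPM) lay within the naturals, at 40.7 to 55.1 CPM and 7.57 to 10.7 CPM. Here CPM are read counts relative to library size after TMM scaling, a scaling that lines up the bulk of the genes between libraries. The share of reads that mapped to the genome, as the study lists it, was lower in every IVF library except IVF 3 than in every natural. These measures moved with the group, and their part in the results that follow cannot be told apart from that of the sire. Values with some of them adjusted or with libraries left out are given below. Those values cannot separate the measures from the sire either, because the measures follow the group.

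**Figure D1:**
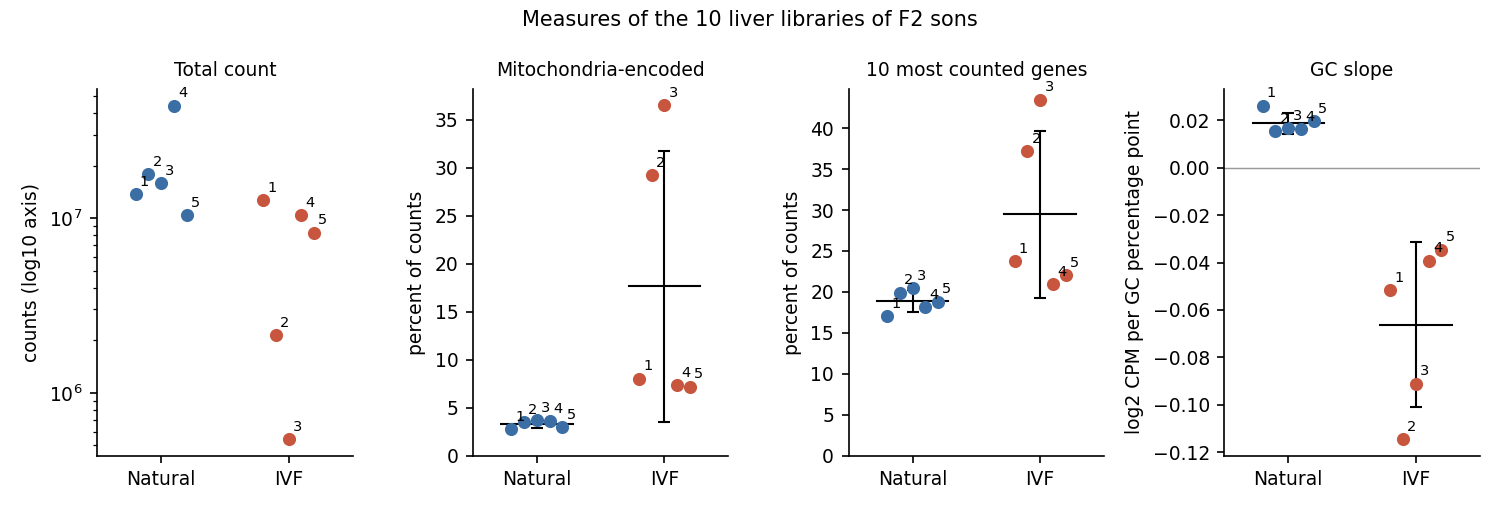
Each numbered point is one library, naturals in blue and IVF in red, for total count (log axis), the percent of counts from mitochondria-encoded genes and from the 10 most counted genes, and the slope of log2 CPM on GC percentage points, with bars for mean ± SD (n = 5 each) in the last 3. The IVF libraries lie above all naturals in the mitochondrial share and below all naturals in the slope of expression on GC, and IVF 2 and IVF 3 are the farthest out.

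A differentially expressed gene (DEG) was a gene with an adjusted p below 0.05 and a change above 1.5-fold between IVF and naturals. Of 11973 genes with enough reads to test, 3725 were DEGs (31.1%), 1669 upregulated (13.9%) and 2056 downregulated (17.2%) in IVF. In 3230 genes (27.0%) the 5 IVF livers did not overlap the 5 naturals, with 10.7% of all genes above and 16.2% below. Without the shallowest library, IVF 3, 3785 of the same 11973 genes were DEGs (31.6%). Without IVF 2 and IVF 3 there were 3300 of them (27.6%), 12.5% up and 15.0% down. Counted over all genes tested in those fits, the numbers were 3817 of 12293 and 3358 of 12687. With each library's mapping rate as a covariate the number was 1468 (12.3%), 6.26% of genes up and 6.01% down.

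The change in a gene tracked the base composition of its transcript. Among the 10% of genes with the least GC (31.0% to 41.3%, 1173 genes) the median change was 0.54 on the log2 scale, 34.8% were upregulated and 1.02% downregulated. Among the 10% with the most GC (57.6% to 69.7%, 1172 genes) the median was −0.89, 1.62% were upregulated and 56.1% downregulated. Spearman's rho between change and GC was −0.60 over 11723 genes, which are not independent replicates. Every IVF library took part, since the median deviation of the GC-richest 10% from the mean of the naturals was −0.89, −1.60, −1.52, −0.77 and −0.73 in IVF 1 to 5 against −0.03 to 0.09 in naturals. When the trend on GC was fitted in each library and removed, the correlation was −0.01, and 2000 genes were DEGs (16.7%), 1344 upregulated (11.2%) and 656 downregulated (5.48%). The split of DEGs therefore moved from more genes down to more genes up, as it also did when the trend on transcript length was removed instead (2141 up and 1624 down), and each group of genes below is given both ways. Of the 3725 DEGs, 1447 were also DEGs in the same direction with the trend removed (904 up and 543 down). The counts for the lists of genes that follow stand against these shares over all genes, 13.9% up and 17.2% down as deposited and 11.2% and 5.48% with the GC trend removed.

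**Figure D2:**
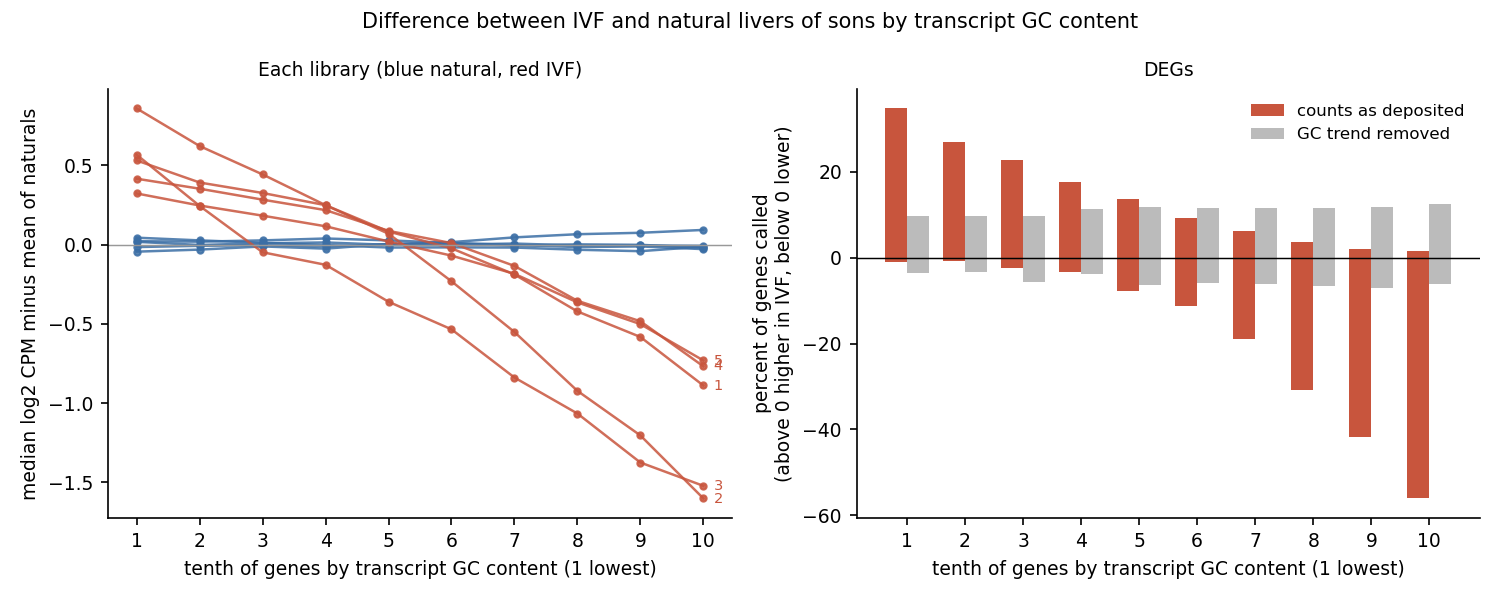
Genes are grouped into 10 equal bins by transcript GC content (horizontal axes), with each library's median log2 CPM minus the mean of naturals as lines on the left (blue natural, red IVF) and the percent of genes that were DEGs as bars on the right, above 0 for higher and below 0 for lower in IVF. All 5 IVF lines fall with GC, to between −0.73 and −1.60 in the last bin, and the bars as deposited turn from 34.8% up to 56.1% down, while those with the GC trend removed stay between 9.63% and 12.6% up.

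Genes whose groups did not overlap, and that kept their call with the GC trend removed and without IVF 3, were led by genes of varied function. Hsp90b1, the HSP90 chaperone of the ER (chr10:86690841-86705444, GRCm38), measured 769, 648, 733, 791 and 813 CPM in naturals 1 to 5 and 1830, 2080, 2500, 2180 and 2040 CPM in IVF 1 to 5. All IVF livers stood well above all naturals, a log2 change of 1.5 ± 0.16 (SE, n = 5 each, edgeR quasi-likelihood test with Benjamini-Hochberg adjusted p = 4.89e-05) and of 1.15 with the GC trend removed (adjusted p = 0.00126). Cpb2, the plasma carboxypeptidase that slows the lysis of clots (chr14:75242287-75283555), was at 123, 108, 109, 101 and 117 CPM in naturals and at 254, 372, 301, 400 and 292 CPM in IVF. Its change was 1.54 ± 0.16 (adjusted p = 4.89e-05), and 1.28 with the trend removed. Ssb, which encodes the La protein that binds the ends of small RNAs (chr2:69861562-69871846), lay between 40.4 and 49.0 CPM in naturals and between 100 and 179 CPM in IVF (1.63, and 1.06 with the trend removed). The others of the 12 leading upregulated genes were the splicing factors Luc7l3 and Zcrb1, the ribosome assembly factor Rpf2, the chromatin protein Mphosph8, the transcription modulator Sltm, the actin nucleation subunit Arpc2, the ciliary transport gene Ift20, the complex III subunit Uqcrh and Tmem184c, with log2 changes of 1.35 to 2.21.

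Among the downregulated leaders, Esrra, a nuclear receptor that drives mitochondrial genes (chr19:6910977-6922048), measured 35.8, 29.1, 24.3, 30.2 and 34.5 CPM in naturals and 7.80, 4.98, 9.64, 7.41 and 8.73 CPM in IVF. No IVF liver came near the lowest natural, and the change was −2.01 ± 0.20 (adjusted p = 3.7e-05) as deposited and −1.93 (adjusted p = 0.000102) with the GC trend removed. The zinc finger gene Zfp787 (chr7:6131489-6159380) fell from 13 to 19.4 CPM in naturals to 3.15 to 4.82 CPM in IVF, and its change was as large with the trend removed (−2.08 and −2.24). For GC-rich genes the size depended on the trend. Rxrb, a partner of many nuclear receptors, has a transcript of 61.4% GC and changed by −1.90 as deposited and −0.82 with the trend removed (adjusted p = 0.0313), and the G protein subunit gene Gnb2 by −1.77 and −0.75. Rps14, a ribosomal protein gene, changed by −2.34 ± 0.22 (adjusted p = 2.85e-05) and by −1.65 with the trend removed, but ribosomal protein genes have near-identical processed copies elsewhere in the genome, so their counts are uncertain.

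**Figure D3:**
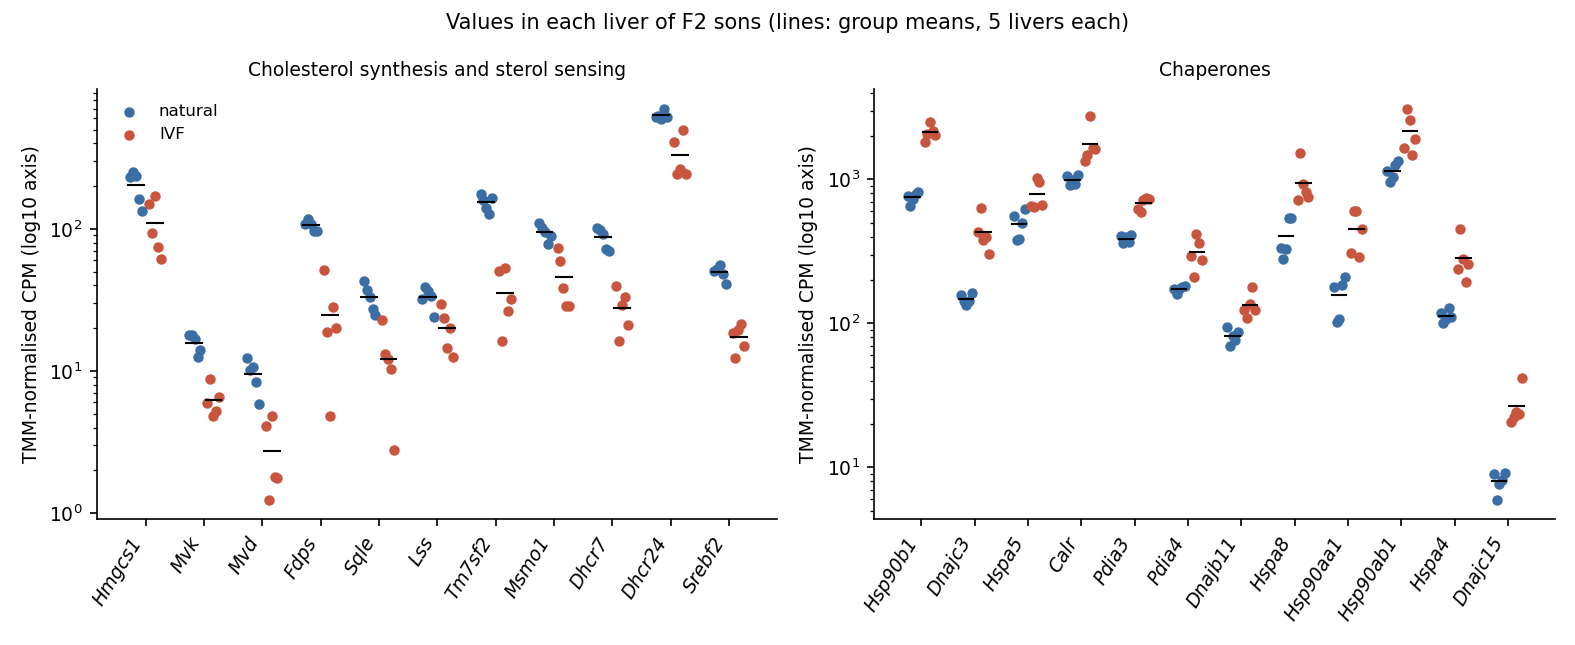
Points give TMM-scaled CPM on a log axis for each of the 10 livers, naturals in blue and IVF in red with lines at the group means, for genes of cholesterol synthesis and sterol sensing (left) and chaperones (right). Hsp90b1, for example, lies between 648 and 813 CPM in naturals and between 1830 and 2500 CPM in IVF.

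Genes of cholesterol synthesis were called lower, and none higher, in the livers of IVF sons. Of 20 genes of the pathway, 12 fell, none rose and 8 did not pass the test, where 17.2% of all genes fell, with a median change of −0.80 against −0.01 over all genes tested. With the GC trend removed 10 fell and none rose, where 5.48% of all genes fell (median −0.74, against 0.05 over all genes). With mapping rate as a covariate 6 fell (6.01% of all genes), without IVF 3 12 fell (17.1%), and without IVF 2 and IVF 3 9 fell (15.0%). With the trend removed and those 2 libraries left out, 10 fell and none rose. Of the 12687 genes tested in that fit 8.84% were up and 6.61% down (15.4% in all). Summed over the pathway, naturals held 2050 to 2370 CPM and IVF 1820, 1220, 1100, 1270 and 1090 CPM, so the groups did not overlap. The median GC content of these transcripts was 49.2%.

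The genes that fell came from the early mevalonate steps to the last reductions. Hmgcs1, the synthase that makes HMG-CoA, measured 231, 253, 237, 161 and 134 CPM in naturals and 149, 93.3, 169, 74.9 and 61.0 CPM in IVF, which overlapped, with a change of −0.93 ± 0.27 (adjusted p = 0.0148) and of −1.23 with the trend removed (adjusted p = 0.017). Fdps, which makes farnesyl diphosphate, was at 95.8 to 118 CPM in naturals, at 51.6 CPM in IVF 1 and at 4.82 to 28.1 CPM in the other IVF livers, a change of −1.92 ± 0.30 (adjusted p = 0.00035) and of −1.79 with the trend removed. The groups were wide apart in Fdps. Mvk and Mvd, which act earlier in the pathway, changed by −1.34 and −1.89. With the trend removed they were at −0.69 and −1.05 and were not DEGs (adjusted p = 0.063 and 0.0523). Sqle, squalene epoxidase and a rate-limiting step, measured 42.7, 37.3, 33.1, 27.4 and 24.9 CPM in naturals and 22.8, 13.1, 12.1, 10.3 and 2.78 CPM in IVF. Every IVF liver was below every natural in Sqle, with a change of −1.42 ± 0.39 (adjusted p = 0.0136) and of −1.46 with the trend removed (adjusted p = 0.0245).

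Later in the pathway, Msmo1, a sterol C4-methyl oxidase, was at 110, 102, 95.0, 77.7 and 88.4 CPM in naturals and at 73.3, 59.7, 38.6, 28.5 and 28.6 CPM in IVF. It changed by −1.04 ± 0.25 (adjusted p = 0.00461) and by −1.31 with the GC trend removed (adjusted p = 0.00241). Tm7sf2, a sterol C14 reductase (chr19:6062821-6067850), fell furthest of the pathway, from 176, 159, 141, 128 and 164 CPM in naturals to 50.6, 16.2, 53.0, 26.3 and 31.9 CPM in IVF. Its change was −2.16 ± 0.25 (adjusted p = 6.81e-05), and −1.94 with the trend removed. Dhcr7, the reductase that makes cholesterol itself (chr7:143823167-143848410), changed by −1.62 ± 0.22 (adjusted p = 0.000129), from 70.0 to 102 CPM in naturals to 16.2 to 39.3 CPM in IVF. Cyp51, Fdft1, Sc5d and Ebp did not pass the test, with changes of −0.36 to −0.17.

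The sterol sensing and uptake genes had fewer calls with the GC trend removed. Of 13 tested, 7 fell and none rose as deposited, and 3 fell and none rose with the GC trend removed. Srebf2 measured 49.6 ± 5.44 CPM in naturals and 17.4 ± 3.63 CPM in IVF (SD, n = 5 each), a change of −1.5 ± 0.18 (adjusted p = 6.81e-05) and of −0.68 with the trend removed (adjusted p = 0.0275).

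Other lipid genes moved less evenly. Of 21 genes of fatty acid synthesis and liver X receptor targets, 1 rose and 5 fell, and with the GC trend removed 1 rose and 1 fell. The 1 that fell both ways was Scd2, a fatty acid desaturase, at 13.3 to 32.3 CPM in naturals and 2.28 to 7.33 CPM in IVF (−2.33 ± 0.34, adjusted p = 0.000195). Fasn, fatty acid synthase, changed by −0.95 (adjusted p = 0.012) as deposited and by 0.01 with the trend removed (adjusted p = 0.987). Of 18 phospholipid synthesis genes 2 rose and 9 fell, and 5 fell with the trend removed, Cds2 among them, a CDP-diacylglycerol synthase (−1.04 ± 0.16, adjusted p = 0.000259). Lpin1, a phosphatidate phosphatase, was called upward (2.45 ± 0.79, adjusted p = 0.0401) from 581 CPM in IVF 2 and 368 CPM in IVF 4, against 38.6 to 75.5 CPM in the other IVF livers and 28.7 to 64.0 CPM in naturals. With the GC trend removed its change was 2.58 (adjusted p = 0.0408), and without IVF 2 and IVF 3 it was 2.00 (adjusted p = 0.0631).

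Of 32 genes of fatty acid oxidation and PPAR-alpha targets 3 rose and 5 fell, close to the background share, and 3 rose and 3 fell with the GC trend removed. Acadl, the long-chain acyl-CoA dehydrogenase, rose from 117 to 144 CPM in naturals to 239 to 325 CPM in IVF (1.06 ± 0.15, adjusted p = 0.000171), while Acads, the short-chain enzyme, fell from 176 to 247 CPM to 31.7 to 82.0 CPM (−1.84 ± 0.22, adjusted p = 7.63e-05). Both were DEGs with the GC trend removed (0.90 and −0.81). Ppargc1a, a coactivator of oxidative genes and a partner of Esrra, was at 5.15 to 7.24 CPM in naturals and 9.36 to 34.8 CPM in IVF (1.71 ± 0.28, adjusted p = 0.00037). In bile acid synthesis, where 2 of 22 genes rose and 6 fell (0 and 3 with the trend removed), Cyp8b1, the 12-alpha-hydroxylase that sets the share of cholic acid (chr9:121914356-121916305), measured 763, 995, 1070, 950 and 919 CPM in naturals and 417, 241, 231, 316 and 349 CPM in IVF. Its change was −1.59 ± 0.19 (adjusted p = 6.9e-05) and −0.90 with the trend removed (adjusted p = 0.00305). Hsd3b7, an early enzyme of the same route, changed by −1.74 ± 0.21 and by −1.12 with the trend removed.

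Genes of glucose handling and insulin signalling were mixed. The calls in glycolysis and gluconeogenesis, 2 up and 9 down of 24, became 3 up and 1 down with the GC trend removed. Eno1, enolase, was lower as deposited (−0.80, adjusted p = 0.00206) and at 0.10 with the trend removed. Gys2, liver glycogen synthase, was upregulated both ways (1.40 ± 0.21, adjusted p = 0.000254, and 1.38, adjusted p = 0.000561). Of 33 insulin and IGF signalling genes 6 rose and 8 fell, not far from the 13.9% and 17.2% of all genes, and with the trend removed 1 rose and 2 fell. Igf1, the growth factor that the liver secretes, measured 456, 568, 591, 581 and 588 CPM in naturals and 946, 1500, 1130, 974 and 958 CPM in IVF, which did not overlap (0.98 ± 0.17, adjusted p = 0.000626). With the trend removed its change was 0.41 (adjusted p = 0.061). Igfals, whose product binds IGF1 in blood, fell both ways (−1.59 and −0.63, adjusted p = 0.000137 and 0.0182). Akt1 was lower as deposited (−0.77) and at 0.24 with the trend removed (adjusted p = 0.339).

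Of the genes the study names in these livers, the insulin receptor substrate Irs1 measured 19.3 to 28.8 CPM in naturals and 16.5 to 34.8 CPM in IVF and did not pass the test (−0.21 ± 0.21, adjusted p = 0.472). Irs2 was at 10.6, 10.9, 13.6, 13.2 and 8.75 CPM in naturals and at 4.88, 13.7, 9.64, 5.31 and 2.66 CPM in IVF. The groups overlapped, and the change of −0.98 ± 0.34 (adjusted p = 0.0341) was −0.25 with the GC trend removed (adjusted p = 0.732). The inflammatory kinase gene Ripk2 had overlapping groups too (−0.19 ± 0.33, adjusted p = 0.685). Rspo1, an activator of Wnt signalling, had 2 to 14 reads in naturals and 0 to 4 in IVF and was too low to test.

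More chaperone genes were called higher than lower in the livers of IVF sons, and many were not called. Of 31 genes of ER chaperones and the unfolded protein response 11 rose, 2 fell and 18 were not DEGs (median 0.24), against 13.9% up and 17.2% down over all genes, and with the GC trend removed 10 rose and none fell, against 11.2% and 5.48%. Of 30 cytosolic and mitochondrial heat shock genes 15 rose, 1 fell and 14 were not DEGs (median 0.58), and 11 rose and none fell with the trend removed. Of 25 DNAJC genes 8 rose, 1 fell and 16 were not DEGs (median 0.51), and 8 rose and 2 fell with the trend removed. With mapping rate as a covariate the counts up and down were 10 and 1, 7 and 1, and 9 and 1, against 6.26% and 6.01% of all genes, and without IVF 3 they were 10 and 2, 16 and 2, and 8 and 1, against 14.5% and 17.1%. The summed levels did not overlap between the groups, at 5780 to 7080 CPM in naturals against 9020 to 11000 CPM in IVF for the ER list, 3500 to 4730 against 5980 to 10100 CPM for heat shock genes, and 661 to 713 against 1000 to 1560 CPM for DNAJC genes. The DNAJC genes were listed because the study names that family in these livers, so their counts are not independent evidence of its direction.

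The ER stress response element, searched here on both strands as CCAAT, any 9 bases and CCACG, is the site through which the unfolded protein response induces many chaperone genes. It occurred in 39 of 32851 promoter windows of RefSeq genes on GRCm38.p6 (0.119%), each running from 250 bases before to 50 after the start. In the ER list 25 of 31 genes had a window and 8 held the element, of which 5 rose, 1 fell and 2 were not DEGs. Of those 2, Canx passed the test but not the fold limit (0.56, adjusted p = 0.00761) and Pdia6 did not pass the test (0.20, adjusted p = 0.438). A match is a description of the letters and not evidence of binding. The windows of the 6 called genes are shown 5′ to 3′ on the strand of the gene, 120 bases each, because they are the called genes of the list that share the element, which is in capitals and lies on the opposite strand in Calr and Creld2.
Hspa5: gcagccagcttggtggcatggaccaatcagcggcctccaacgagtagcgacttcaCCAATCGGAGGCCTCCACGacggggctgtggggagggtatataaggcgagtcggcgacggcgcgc
Hsp90b1: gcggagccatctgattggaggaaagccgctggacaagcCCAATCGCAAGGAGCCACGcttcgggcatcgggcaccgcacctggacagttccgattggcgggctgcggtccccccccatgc
Calr: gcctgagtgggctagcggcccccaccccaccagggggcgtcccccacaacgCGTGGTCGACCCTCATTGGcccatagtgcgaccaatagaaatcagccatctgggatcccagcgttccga
Dnajc3: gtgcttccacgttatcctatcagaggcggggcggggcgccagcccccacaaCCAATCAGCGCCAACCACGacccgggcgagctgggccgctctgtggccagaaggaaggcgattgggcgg
Creld2: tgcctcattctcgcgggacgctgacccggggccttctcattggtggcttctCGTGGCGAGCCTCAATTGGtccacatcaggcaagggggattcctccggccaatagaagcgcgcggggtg
Syvn1: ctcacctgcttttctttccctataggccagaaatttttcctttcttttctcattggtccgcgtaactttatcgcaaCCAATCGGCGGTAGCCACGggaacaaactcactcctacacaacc
The stretches lie at chr2:34771970-34772089 (Hspa5, plus strand), chr10:86705575-86705694 (Hsp90b1, minus), chr8:84847025-84847144 (Calr, minus), chr14:118937776-118937895 (Dnajc3, plus), chr15:88819469-88819588 (Creld2, plus) and chr19:6046456-6046575 (Syvn1, plus).

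The genes behind these windows did not all move alike. Hsp90b1 has been given above. Dnajc3, an ER co-chaperone that also restrains the kinase PERK, measured 157, 143, 134, 143 and 163 CPM in naturals and 429, 634, 381, 400 and 304 CPM in IVF. All IVF livers lay above all naturals (1.54 ± 0.19, adjusted p = 8.25e-05, and 1.2 with the GC trend removed, adjusted p = 0.000575). Hspa5, the ER HSP70 also called BiP, was at 559, 382, 387, 496 and 625 CPM in naturals and at 656, 639, 1020, 952 and 668 CPM in IVF, a smaller and barely separated difference (0.68, adjusted p = 0.015, and 0.58 with the trend removed, adjusted p = 0.12). Calr, calreticulin, was at 918 to 1070 CPM in naturals and 1340 to 2770 CPM in IVF (0.83, adjusted p = 0.00432, and 1.13 with the trend removed, adjusted p = 0.0159). Creld2, an ER protein induced by stress, measured 36.0, 12.6, 18.2, 27.5 and 30.1 CPM in naturals and 59.4, 26.1, 28.9, 79.2 and 60.0 CPM in IVF, which overlapped (1.12, adjusted p = 0.0138, and 1.68 with the trend removed, adjusted p = 0.00109). Syvn1, the ubiquitin ligase that clears misfolded ER proteins, was lower in IVF despite the element (−1.05, adjusted p = 0.000877), and its change with the trend removed was −0.32 (adjusted p = 0.158). The disulfide isomerases Pdia3 and Pdia4 rose by 0.82 and 0.84 and Dnajb11 by 0.72. Of other ER genes, Manf and Herpud1 rose by 0.79 and 0.94. Xbp1, Sdf2l1, Hyou1 and Ddit3 did not pass the test, at −0.44, −0.60, 0.03 and 0.24 (adjusted p = 0.0609, 0.15, 0.95 and 0.651). In the whole ER list 11 rose, 2 fell and 18 were not DEGs. Atf4, a stress transcription factor, was lower as deposited (−0.67, adjusted p = 0.00687) and at 0.10 with the trend removed.

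In the cytosol, Hsp90aa1, the inducible HSP90, measured 179, 103, 107, 186 and 210 CPM in naturals and 308, 606, 603, 289 and 453 CPM in IVF. All IVF livers were above the naturals, most of all the shallow libraries IVF 2 and IVF 3 (1.52 ± 0.26, adjusted p = 0.000494). Without those 2 libraries its change was 1.18 (adjusted p = 0.00619). Hspa8, the constitutive HSP70, rose by 1.23 (adjusted p = 0.00145), Hsp90ab1 by 0.90 and the mitochondrial chaperonin Hspd1 by 0.81, and all 3 were DEGs with the GC trend removed. Hspb8, a small heat shock protein, fell by 0.87 (adjusted p = 0.00665) and was at −0.47 with the trend removed (adjusted p = 0.103). The heat shock motif, searched on both strands as GAA, TTC and GAA with any 2 bases between them, was present in 4 of 24 windows of the heat shock list against 198 of 32851 windows in all (0.603%), and the genes were Hsph1, Hspd1 and Hspe1, which rose, and Dnajb6, whose change of 0.52 (adjusted p = 0.0284) was under the fold limit. With the GC trend removed Hspd1 and Dnajb6 were DEGs (0.72 and 0.70). Hsph1 and Hspe1 were not (adjusted p = 0.0804 and 0.0709), at 1.44 and 0.60 against 1.49 and 0.79 as deposited. Hspd1 and Hspe1 are read in opposite directions from a shared promoter region, and their matches overlap.

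The DNAJC genes that rose were Dnajc1, Dnajc2, Dnajc3, Dnajc7, Dnajc8, Dnajc15, Dnajc21 and Dnajc25. Dnajc15, a co-chaperone of the mitochondrial inner membrane (chr14:77826217-77874917), measured 9.05, 5.96, 7.73, 8.14 and 9.09 CPM in naturals and 20.7, 22.4, 24.1, 23.6 and 41.9 CPM in IVF. IVF 5 stood highest, and the change was 1.76 ± 0.23 (adjusted p = 9.93e-05) and 1.48 with the trend removed. Dnajc21 and Dnajc2, which work at the ribosome, rose by 1.90 and 1.84. Dnajc22 went the other way, from 88.4, 84.5, 83.1, 83.5 and 78.6 CPM in naturals to 41.2, 37.3, 24.1, 41.2 and 39.0 CPM in IVF (−1.14 ± 0.15, adjusted p = 0.00012, and −0.76 with the trend removed, adjusted p = 0.0022).

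**Figure D4:**
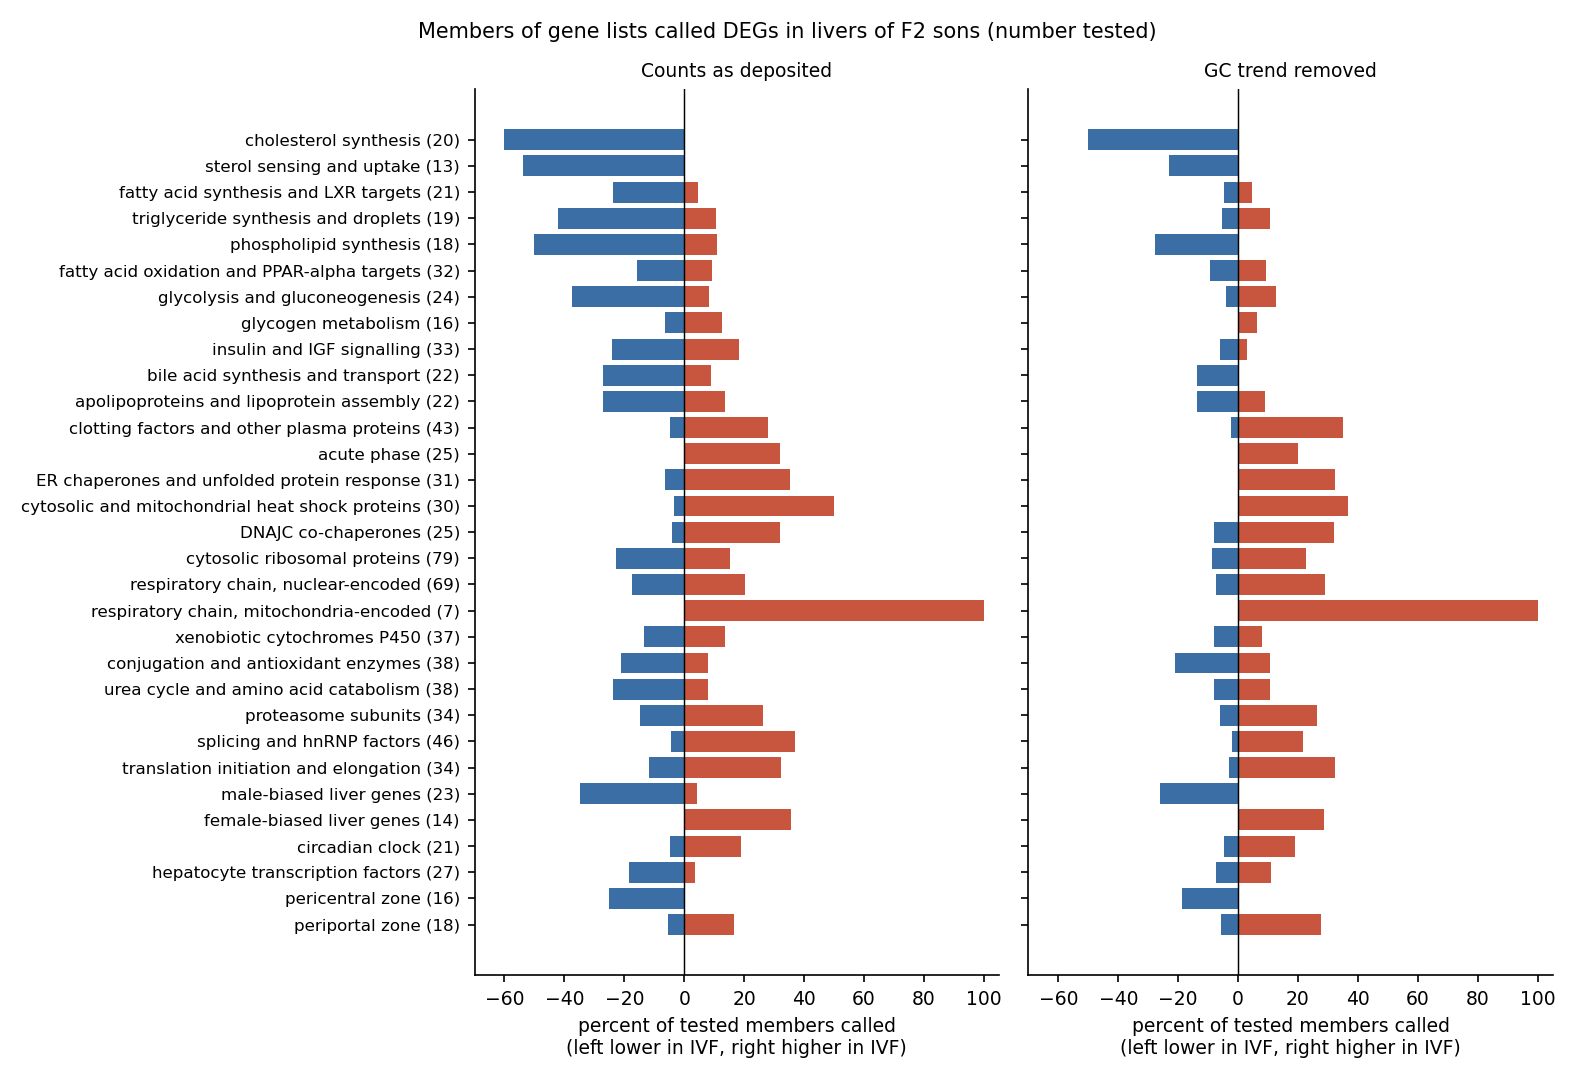
For each list of genes, bars give the percent of tested members (number tested in brackets) that were DEGs, to the left lower and to the right higher in IVF, as deposited and with the GC trend removed. Cholesterol synthesis has 12 genes down and none up, and the heat shock list has 15 up and 1 down.

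Genes for making protein were called in both directions. Of 79 cytosolic ribosomal protein genes 12 rose and 18 fell, not far from the 13.9% and 17.2% of all genes, and with the GC trend removed 18 rose and 7 fell. Of 46 splicing factors 17 rose and 2 fell (10 and 1 with the trend removed), and of 34 translation factors 11 rose and 4 fell (11 and 1). Eif5b, which joins the ribosomal subunits, rose from 96.5 to 121 CPM in naturals to 254 to 569 CPM in IVF (1.83 ± 0.21, adjusted p = 6.81e-05). Proteasome subunits split as well, with 9 of 34 up and 5 down (9 and 2 with the trend removed), the alpha subunit Psma4 rising by 1.48 and the catalytic subunit Psmb5 falling by 1.56 on the log2 scale (1.27 and −0.91 with the trend removed).

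All 7 mitochondria-encoded genes that could be tested were upregulated (median 3.20, and 2.54 with the GC trend removed). ND1, a complex I subunit, measured 2510, 2930, 3360, 3240 and 2460 CPM in naturals and 9740, 34600, 37300, 9130 and 10200 CPM in IVF. COX1, the catalytic subunit of cytochrome oxidase, was at 8480 to 12900 CPM in naturals and at 21800, 36600, 33100, 20600 and 17100 CPM in IVF (1.25 ± 0.22, adjusted p = 0.000595). IVF 2 and IVF 3 were highest in both, and the other IVF livers were above all naturals as well. All 7 were DEGs without IVF 2 and IVF 3, with smaller changes, at 1.76 for ND1 (2.80 with them), 1.91 for ND2 (4.22), 1.71 for ND4 (3.72), 1.62 for ND5 (3.20), 1.80 for ND6 (3.61) and 0.88 for COX1 (1.25). The other 6 of the 13 genes were near 0 reads in every library and say nothing about their levels. Of 69 respiratory chain genes encoded in the nucleus 14 rose and 12 fell, against 13.9% up and 17.2% down over all genes. With the trend removed 20 rose and 5 fell (median 0.23), against 11.2% and 5.48%.

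Plasma protein genes were more often higher than lower. Of 43 clotting factor and other plasma protein genes 12 rose and 2 fell, and 15 rose and 1 fell with the GC trend removed. Clotting factor F9 rose by 1.05 ± 0.17 (adjusted p = 0.000316) and was at 0.52 with the trend removed, under the fold limit (adjusted p = 0.0267). Serpina6, the carrier of corticosteroids, measured 122, 125, 133, 214 and 163 CPM in naturals and 340, 235, 313, 473 and 471 CPM in IVF (1.28 ± 0.22, adjusted p = 0.000505). The acute phase genes, which the liver induces in inflammation, had 8 of 25 up and none down (5 and none with the trend removed), but 1 liver carried much of this. In IVF 4 Saa1 stood at 5540 CPM against 17.4 to 111 CPM in the other IVF livers and 23.9 to 227 CPM in naturals, and Lcn2 at 573 CPM against at most 7.86 CPM in any other liver (both named after their values were seen). Orm2, at 968 CPM in IVF 4, was called upward by 5.20 ± 1.72 (adjusted p = 0.0476). With the trend removed its change was about as large, at 5.17, but it was not a DEG (adjusted p = 0.0665). Without IVF 4, 5 acute phase genes rose and 3 fell, while the counts for plasma proteins were 12 up and 7 down, against 13.9% up and 17.2% down over all genes.

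Sex-biased genes were called in part. Of 23 male-biased genes 1 rose and 8 fell (0 and 6 with the GC trend removed), and of 14 female-biased genes tested 5 rose and none fell (4 and none), against 13.9% up and 17.2% down over all genes. The other 14 of the 28 listed female-biased genes were too low to test, and a member that is low in naturals could enter the test through IVF alone and then only rise. Of those that rose, Cyp2b9 averaged 0.561 CPM and Cyp17a1 0.819 CPM in naturals, so these counts give no support to a direction. Cyp2d9, a male-biased P450, fell from 2020 to 2340 CPM in naturals to 523 to 1370 CPM in IVF (−1.38 ± 0.23, adjusted p = 0.00043, and −0.85 with the trend removed). Without IVF 2 and IVF 3 the counts were 1 up and 3 down, and 3 up and none down, against 12.5% up and 15.0% down over all genes. IVF 3, the liver with the most Xist, was also highest in the summed female-biased genes, at 926 CPM against 98.0 to 229 CPM in the other IVF livers and 69.3 to 151 CPM in naturals. Cyp2c40, a P450 of a family whose members share sequence so that reads may be split among them, was at 2.52 to 3.35 CPM in naturals and at 15.0, 9.95, 53.0, 11 and 15.9 CPM in IVF (2.53 ± 0.35, adjusted p = 0.000137). Its change without IVF 2 and IVF 3 was 2.29.

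Markers of the cell types a liver sample can hold were compared to see whether other cells moved with the groups. In bulk tissue, fewer cells of a type and less RNA per cell cannot be told apart. The hepatocyte markers were abundant in every library (120000 to 153000 CPM in naturals and 138000 to 203000 CPM in IVF, with 3 of 16 up and 1 down, and 2 and none with the GC trend removed). Of 16 macrophage and Kupffer cell markers 7 rose and 1 fell (6 and none), with overlapping sums of 250 to 424 CPM and 265 to 572 CPM. Without IVF 4, which held the 572 CPM, 4 rose and 2 fell. Timd4, a receptor of resident Kupffer cells, rose by 1.86 ± 0.30 (adjusted p = 0.000344), and C1qa fell by 1.51 (adjusted p = 0.000552, and 0.113 with the GC trend removed). These counts stand against 13.9% up and 17.2% down over all genes. Endothelial and stellate markers each had 2 of 17 up and 2 down, below those shares, and none of them with the trend removed. Cholangiocyte markers (4 tested) were not called, and only 1 lymphocyte and 1 neutrophil marker were high enough to test. The sperm protamine and transition protein genes Prm1, Prm2, Tnp1 and Tnp2, which only testis should make, were at 14.1 to 53.1 CPM in naturals 1 and 5 and 2.65 to 4.49 CPM in natural 4. Their part in other results was not tested.

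The daughters of the same kinds of sires, 5 natural and 6 IVF livers of 12-week-old females, were fitted in the same way and share no library with the sons. There 4935 of 12525 genes were DEGs (39.4%), 21.6% upregulated and 17.8% downregulated in IVF, and with the GC trend removed 1055 were upregulated (8.42%) and 1262 downregulated (10.1%). Among 11825 genes tested in both sexes, 2907 were DEGs in opposite directions (78.6% of the sons' and 60.1% of the daughters' DEGs), and 10 were DEGs in the same direction (0.27% and 0.207%). Genes upregulated in IVF sons had a median change of −0.90 in daughters, and genes downregulated in sons one of 1.06. With the GC trend removed 1131 were opposite and 3 the same. A test of the difference between the sexes (an interaction term) called 6913 of 13073 genes (52.9%), 25.2% with the change in sons above that in daughters and 27.7% below, and 4561 with the trend removed (34.9%, 20.1% above and 14.8% below).

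The measures of the libraries ran the opposite way in daughters. There the naturals had the larger mitochondrial share, 5.59% to 16.1% against 2.01% to 3.82% in IVF, and their slopes on GC (−0.0793 to −0.0445) all lay below those of IVF (−0.007 to 0.0301). Spearman's rho between change and GC was 0.71 over 12214 genes in daughters. Sex of the offspring and the set of libraries cannot be told apart in these data. Whether the group labels are exchanged in one of the sexes was not tested and cannot be told from these tables (other measures of the animals were not analysed here), and such an exchange would turn the sign of every IVF minus natural value in that sex.

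Hsp90b1, upregulated by 1.5 in IVF sons, was lower in IVF daughters (−0.86 ± 0.18, adjusted p = 0.000849, and −0.26 with the GC trend removed, adjusted p = 0.228), and the interaction was 2.35 (adjusted p = 1.03e-08). Esrra changed by −2.01 in sons and 2.19 in daughters. Of 131 DEGs of the sons named by the rule and tested in daughters, 113 were DEGs in the opposite direction there. Of all the sons' DEGs tested in both sexes 78.6% were, so this count is not particular to the named genes. The ER list had 5 up and 6 down in daughters, the heat shock list 4 and 8, and the DNAJC list 2 and 10, of 31, 30 and 25 tested and against 21.6% up and 17.8% down over all genes. With the trend removed the counts were 1 and 0, 2 and 2, and 1 and 7, against 8.42% and 10.1%.

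In cholesterol synthesis 8 of 20 genes fell and 3 rose in IVF daughters as deposited (median −0.30), against 17.8% and 21.6% of all their genes. With the GC trend removed 6 fell and 1 rose, against 10.1% down and 8.42% up over all genes of the daughters. The interaction was called in 10 of the 20 genes, 3 with the change in sons above that in daughters and 7 below, near the 52.9% of all genes. Of the 10 genes with the same direction in both sexes, 3 belonged to it. Sqle changed by −1.42 ± 0.39 in sons and −1.41 ± 0.47 in daughters (adjusted p = 0.0136 and 0.0292), with an interaction of −0.02 ± 0.68 (adjusted p = 0.984). Hmgcs1 changed by −0.93 and −1.28 and Msmo1 by −1.04 and −1.13. The interactions of those 2 were 0.34 ± 0.40 (adjusted p = 0.493) and 0.09 ± 0.46 (adjusted p = 0.886), errors that leave room for sizeable differences between the sexes. Other steps went apart, since Tm7sf2 was at −2.16 in sons and 1.35 in daughters, and Cyp51 at −0.18 in sons and −2.11 in daughters (interaction 1.92, adjusted p = 0.00129). With the trend removed the 3 genes called in the same direction were Hmgcs1, the isomerase gene Idi1 and LOC100861749. The remaining same-direction genes as deposited were LOC100861749, Acot11, Orm3 and Saa3, upregulated, and Aurka, Stk38l and Gm38481, downregulated, in both. In sons Saa3 and Orm3 rested largely on IVF 4, at 80.4 CPM against 1.24 to 4.82 CPM in the other IVF livers for Saa3 and at 27.6 CPM against 0 to 6.58 CPM for Orm3. Neither was a DEG in sons with the GC trend removed (adjusted p = 0.062 and 0.0544). Their changes were about as large then, at 3.19 and 2.53 against 3.24 and 2.61 as deposited.

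**Figure D5:**
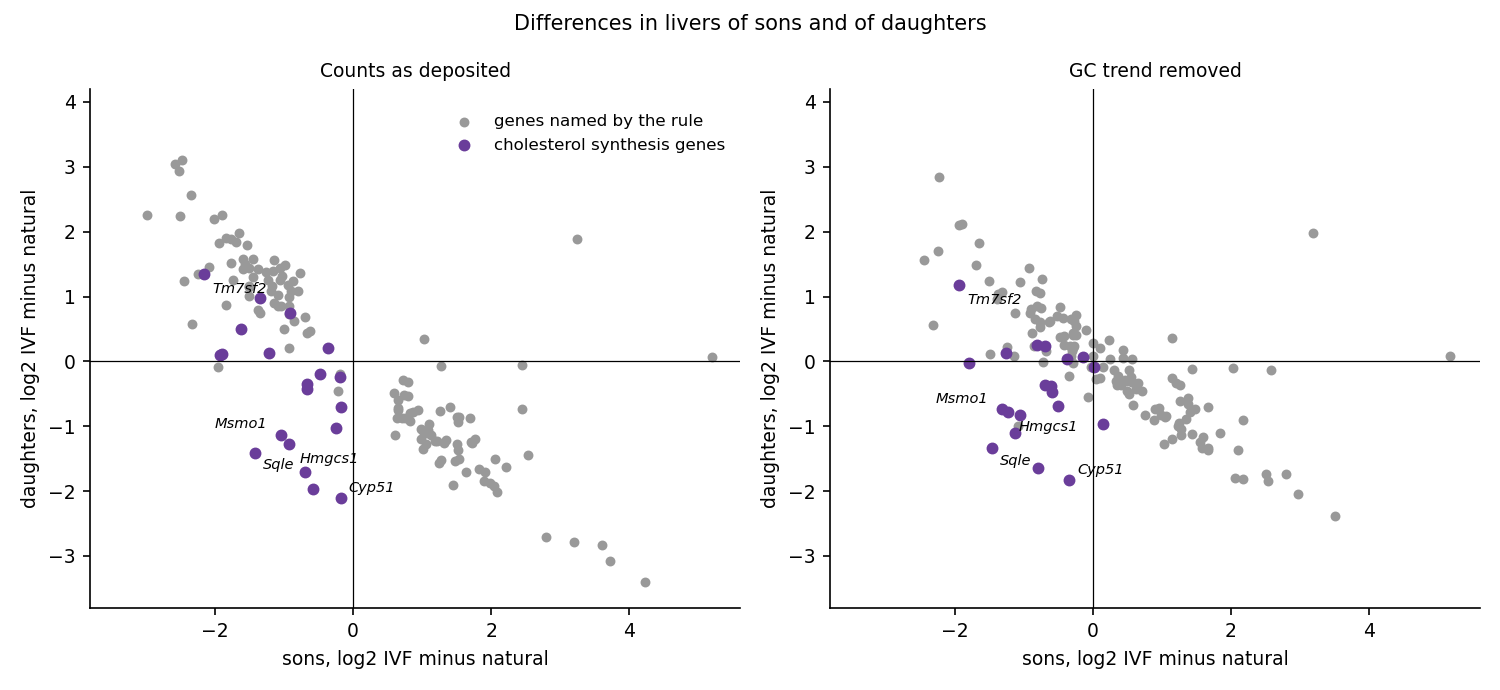
Each point is a gene, with its log2 change, IVF minus natural, in sons on the horizontal axis and in daughters on the vertical axis, as deposited and with the GC trend removed. Most genes named by the rule lie in the 2 quadrants of opposite sign, and the cholesterol genes Sqle, Hmgcs1 and Msmo1 lie in the quadrant lower in both sexes.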

How the data were processed

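Polyadenylated RNA of 12-week-old F2 livers was sequenced from 5 naturals and 5 IVF sons, and from 5 naturals and 6 IVF daughters used only for comparison. Total RNA extracted with an RNeasy mini plus kit was made into libraries with a KAPA Stranded mRNA-Seq kit. The authors deposited raw counts per gene symbol, and per the submitters' processing notes the tools were Trimmomatic 0.32, STAR 2.3.0e, featureCounts 1.5.0 and DESeq2 with the mouse build mm10 (GRCm38). Whether reads were counted by strand is not given in the sources used here, so genes that overlap on opposite strands cannot be told apart. Most low counts were even numbers, so both mates of a pair appear to have been counted, and a count of 2 can be 1 fragment. Depth ran from 543745 to 44069283 counts per library, and genes with few counts in IVF 3 and IVF 2 are imprecise.

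Counts were filtered by group, scaled by TMM and tested with edgeR 4.0.16 (robust quasi-likelihood fit, R 4.3.3), with Benjamini-Hochberg adjustment over all genes tested. DEGs had an adjusted p below 0.05 and a change above 1.5-fold. Standard errors were taken as the log2 change over the root of the F statistic. For the GC trend, a lowess curve (span 0.3) of each library's log2 CPM (prior count 2) on GC content of the longest GENCODE transcript (27336 of 35976 symbols matched) was removed as an offset. Library measures were compared by exact two-sided permutation tests. The interaction used all 21 F2 livers in a single fit. The mapping rates that the study lists served as a covariate only. The 139 genes named by the rule included the 12 most significant in each direction whose groups did not overlap. These were also required to stay DEGs with the GC trend removed and without IVF 3. Up to 2 DEGs per direction were added from each list of a pathway, family, zone or sex bias. The rest were genes the study names, sex check genes and, among DEGs, the 6 largest changes per direction at 10 CPM or more. Of the 139 genes, 137 were tested and 132 were DEGs. Some of them are not reported here. The genes and lists were chosen with earlier results of these data known. No 2 libraries of a group agreed within sampling noise (chi-square per degree of freedom 4.92 to 71.6). Alternatives were DESeq2 1.42.0, other filters and scalings, library and trend corrections, thinning and leaving out libraries. The fit across genes and the removal of the GC trend were tested on simulated data.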

Additional observations from a re-analysis of the deposited data

Results flagged for a closer look

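The difference between IVF and naturals itself differed between sons and daughters in 6913 of 13073 genes by an interaction term in the edgeR quasi-likelihood fit, and in 127 of the genes named by the rule. In the order sons minus daughters, the log2 differences of the upregulated leaders were 2.35 for Hsp90b1, 3.31 for Ssb, 3.03 for Cpb2, 3.53 for Ift20, 4.08 for Sltm, 2.54 for Arpc2, 3.85 for Luc7l3, 3.95 for Mphosph8, 3.82 for Tmem184c, 3.72 for Rpf2, 2.96 for Zcrb1 and 2.86 for Uqcrh. Those of the downregulated leaders were −3.27 for Pqlc1, −4.91 for Rps14, −4.20 for Esrra, −5.59 for Scand1, −3.66 for Gnb2, −3.65 for Fam73b, −4.16 for Rxrb, −2.68 for Tmem134, −3.55 for Zfp787, −3.76 for Aldh16a1, −3.59 for Capn15 and −5.46 for Tmem82. In each of these 24 genes the sons and the daughters changed in opposite directions as deposited. With the GC trend removed 4561 genes differed. The 24 leaders had been chosen as DEGs of the sons that were also DEGs with the trend removed, so that choice fixed the sons' part of the difference, which is given here as a description, at 1.46 to 3.93 for the upregulated leaders and −4.01 to −1.42 for the downregulated ones. The difference was much smaller with the trend removed for Scand1 (−2.27), Gnb2 (−1.52), Fam73b (−1.77), Rxrb (−1.86) and Capn15 (−1.42), and close to its deposited size for Pqlc1 (−3.14), Esrra (−4.01) and Ift20 (3.54). The mitochondrial share was reversed between the sexes as well, and its part in the differences was not tested.

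A single liver stood far from the other 4 of its group in 25 of 284 groups examined by Dixon's test. Chance alone gives about 1 in 20 (14.2). The groups held gene values, as log2(CPM + 1), or library measures, and all 25 found were of gene values. In IVF 4 the acute phase genes Orm2 (968 CPM), Saa3 (80.4 CPM) and Cp (3290 CPM) stood above the other IVF livers, and the phospholipid gene Cds2 (58.7 CPM) did too. In IVF 2, the second smallest library, the low values were 15.5 CPM for Gnb2, 1.87 CPM for the liver X receptor gene Nr1h2, 2.49 CPM for Psmb5, 49.8 CPM for Hnrnpl and 98.3 CPM for Gulo, and the high ones 76.5 CPM for the kinase gene Rps6kb1 and 190 CPM for the clock gene Nr1d2. In IVF 3, the smallest library, Tmem82 had 0 CPM, Dnajc22 24.1 CPM and Cyp2c40 53.0 CPM. In IVF 5 Scand1 was at 9.11 CPM and Dnajc15 at 41.9 CPM, both above the rest. Among naturals, natural 1 was highest in Rpf2 (7.04 CPM) and Zcrb1 (14.8 CPM) and lowest in Igf1 (456 CPM) and Apob (4070 CPM). Natural 3 stood apart in the cardiolipin synthase gene Crls1 (27.3 CPM), F9 (163 CPM) and Psmc6 (49.1 CPM), natural 4 in Aldh1b1 (63.6 CPM) and natural 5 in the urea cycle gene Otc (301 CPM).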

How the results depend on the processing

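The 3725 DEGs of the sons lay between 3173 (without natural 1) and 3909 (without IVF 5) when each library was left out in turn, and between 3213 and 4124 under other size factors, DESeq2, no filter, no fold limit, halved counts, the length trend removed, mitochondria-encoded genes left out of the library sizes, or IVF 2 left out with IVF 3 or IVF 5. The number fell to 1468 with mapping rate as a covariate, 2000 with the GC trend removed, 1524 with the GC trend removed and a replicate block, 1490 of 4212 genes with at least 10 counts in every library, 1844 of 5374 genes with libraries thinned to the smallest, and 1960 with the GC trend removed and IVF 2 and IVF 3 left out, an alternative chosen after seeing the data. Of those counts, 1379, 1447, 1133, 1246, 1637 and 1355 were among the 3725 in the same order. For thinning and the count minimum fewer genes were tested, and for the others the cause was not tested. The daughters' 4935 became 1322 with mapping rate and 2317 with the GC trend removed, and the 6913 genes with an interaction became 3634 and 4561. The replicate numbers did not pair the samples, since same-numbered sons' livers correlated by −0.033 to 0.034 and none correlated best with its own number, and a replicate block left 3250 DEGs in sons and 4282 in daughters. Some named genes changed sign. With mapping rate Ripk2 was at 0.25 and Uty at −0.02. With the GC trend removed Agpat2 and Pcyt2 were at 0.0, Eno1 0.10, Gsk3a 0.35, Akt1 0.24, Atf4 0.10, Ddx3y −0.15 and Uty −0.21, and with a replicate block as well Agpat2 was at 0.02, Eno1 0.11, Gsk3a 0.37, Akt1 0.24, Atf4 0.09, Ddx3y −0.17 and Uty −0.26. Without IVF 2 and IVF 3 Ripk2 was at 0.02, and with the GC trend removed there Chpt1 was at −0.13, Gsk3a 0.12, Akt1 0.18, Slco1b2 −0.07, Ddx3y −0.16 and Uty −0.29. Thinning put Irs1 at 0.07. Of the 132 named DEGs, 80 were DEGs with the GC trend removed. The difference in log2 total count (−2.10) ran from −2.49 to −1.36 over libraries left out, with an exact permutation p of 0.0595 adjusted over 5 measures without natural 1, 2, 3 or 4, IVF 2 or IVF 3. The slope on transcript length, which did not pass the test over all libraries (difference 0.108, exact permutation p = 0.119), ran from 0.0752 to 0.159 and passed only without IVF 5 (adjusted p = 0.0198). Depth limits the low genes, since IVF 3 had a count for 9147 genes against 16105 or more in naturals.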

Other observations

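Other groups of liver genes in the sons gave mixed counts, read against 13.9% up and 17.2% down over all genes tested. Of 37 xenobiotic P450 genes 5 rose and 5 fell (3 and 3 with the GC trend removed). Leaving out IVF 4 gave 11 P450 genes up and 5 down, where 13.9% of all genes were up and 17.2% down. Of 38 conjugation and antioxidant genes 3 rose and 8 fell (4 and 8). Sult1a1, a sulfotransferase, rose by 1.69 ± 0.29 (edgeR quasi-likelihood test, adjusted p = 0.000605) and by 1.67 with the trend removed, while Gpx4, which protects membrane lipids from oxidation, fell from 151 to 169 CPM in naturals to 28.6 to 82.9 CPM in IVF (−1.5 ± 0.24, adjusted p = 0.000321, and −0.47 with the trend removed, adjusted p = 0.0447). Of 38 urea cycle and amino acid genes 3 rose and 9 fell, and 4 and 3 with the trend removed, with Otc, the urea cycle enzyme, up by 1.02 but under the fold limit with the trend removed (0.58, adjusted p = 0.0439) and Ftcd, an enzyme of histidine breakdown, down (−1.45, and −0.83). Of 19 genes of triglyceride synthesis and lipid droplets 2 rose and 8 fell (2 and 1 with the trend removed). Of 22 apolipoprotein and lipoprotein assembly genes 3 rose and 6 fell (2 and 3), with Pltp, the phospholipid transfer protein, at 13.1 to 35.4 CPM in naturals and 3.73 to 9.61 CPM in IVF (−1.84 ± 0.29, adjusted p = 0.000316, and −1.14 with the trend removed). Of 16 glycogen genes 2 rose and 1 fell (1 and 0).

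Genes that mark the position of hepatocytes in the lobule had 0 of 16 pericentral genes up and 4 down (0 and 3 with the GC trend removed), and 3 of 18 periportal genes up and 1 down (5 and 1). Hsd17b13, a lipid droplet enzyme of the periportal list, lay between 361 and 487 CPM in naturals and between 660 and 1270 CPM in IVF (1.28 ± 0.19, adjusted p = 0.000203), and Rnf43, a target and brake of Wnt signalling, changed by −1.34 ± 0.24 (adjusted p = 0.00065) and by −0.72 with the trend removed. Of 21 clock genes 4 rose and 1 fell (4 and 1), with Nr1d2, a repressor of the clock, up by 1.10 (0.66 with the trend removed). Of 27 hepatocyte transcription factors 1 rose and 5 fell (3 and 2). Immediate early genes, which respond to handling of the tissue, had 1 of 21 up and 6 down (3 and 3). Of 26 interferon-stimulated genes 3 rose and 4 fell (2 and 3), and of 17 classical MHC genes 1 rose and 5 fell (3 and 0). Red cell markers, at 285 to 527 CPM in naturals and 437 to 926 CPM in IVF, had 1 of 6 up and 2 down (2 and 1).

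Of 8 tested RNAs that are made without a poly(A) tail or stay in the nucleus 3 rose and 3 fell (1 and 3 with the GC trend removed). The nuclear RNA Malat1 rose by 1.05 ± 0.27 (adjusted p = 0.00697) and was at 0.68 with the trend removed (adjusted p = 0.0817). Lars2, a mitochondrial leucine tRNA synthetase whose locus draws reads of ribosomal RNA in some libraries, changed by −2.58 ± 0.44 (adjusted p = 0.00113), and its count is uncertain for that reason. Id3, an inhibitor of basic helix-loop-helix factors, had the largest fall among DEGs that averaged 10 CPM or more in either group (−2.98 ± 0.57, adjusted p = 0.00258).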
